A study of Mus musculus with 39 samples.

Results

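The 10 genes described here encode proteins of the extracellular matrix and signals made by connective tissue cells: the collagen chains Col1a1, Col1a2 and Col3a1, the proteoglycan Dcn, the matrix glycoproteins Sparc and Spp1, the bone protein Bglap, the growth factor binding protein Igfbp5, the leptin receptor Lepr and the stem cell factor Kitl. They were taken by symbol from a table of 53465 mouse genes, in which all 10 were found once, and all 10 were among the 18466 genes that were tested. RNA was sequenced in 39 libraries, 3 for each of 13 groups. Bone marrow of C57BL/6 mice at postnatal day 7 was sequenced unsorted (all cells) and as G and M sorts. From BALB/c mice, labelled as immune-deficient, the spleen was sequenced as G, M and combined G+M sorts. APCmin/+ mice, which carry a mutant Apc allele known for causing intestinal tumours, gave the same sorts from spleen and from intestine, and also all intestinal cells. G and M stand for the granulocytic and monocytic kinds of myeloid-derived suppressor cells, immature myeloid cells known for restraining T cells. The sources used here do not give the surface markers of the sorts, the stretch of intestine, the ages of the BALB/c and APCmin/+ mice or the background strain of the latter, and all intestine analysed here carried the APCmin/+ allele.

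Bone is laid down by osteoblasts as a fabric of type I collagen, built from Col1a1 and Col1a2 chains, onto which Sparc (osteonectin), Spp1 (osteopontin) and Bglap (osteocalcin) bind with mineral. Inside the bone, stromal cells that surround blood vessels and carry Lepr make Cxcl12 and Kitl, which hold and feed blood stem cells through the receptor Kit. In the gut wall, fibroblasts and smooth muscle cells make type III collagen (Col3a1) and Dcn, a small proteoglycan that coats collagen fibrils.

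On the mm10 build (GRCm38, GENCODE M21), Col1a1 lies at chr11:94936224-94953042 and Sparc on the same chromosome at chr11:55394500-55423183. Col1a2 lies at chr6:4504814-4541544, Col3a1 at chr1:45311538-45349706 and Igfbp5 at chr1:72857932-72874884. Dcn and Kitl share a chromosome, at chr10:97479609-97518143 and chr10:100015630-100100416. Lepr lies at chr4:101717404-101815352 and Spp1 at chr5:104435118-104441050. Bglap, at chr3:88383501-88384464, is 1 of 3 neighbouring copies, with Bglap2 at chr3:88377736-88378699 and Bglap3 at chr3:88368616-88372743. All 10 are protein-coding genes, and Col1a1, Col1a2, Col3a1, Dcn, Kitl, Lepr and Spp1 are on the plus strand.

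The sequences below are the 250 bases before the annotated start of the Bglap, Bglap3 and Spp1 genes, 5′ to 3′ on the gene's strand, from RefSeq (GRCm38.p6), which held such a window for 8 of the 10 genes and not for Col1a1 or Dcn. They are shown because Bglap and its copy Bglap3 had opposite levels in marrow and intestine, and because Spp1, also a bone protein, was above 0 in all 39 libraries. Sparc, Col1a1, Col1a2, Lepr and Kitl were above 0 in all 39 as well. Capitals mark 3 short motifs, each searched on both strands. ACCACA is the core bound by Runx factors, which direct osteoblast genes. TATAAA is a form of the TATA box near which transcription starts. CCAAT is the site of the common factor NF-Y.
Bglap, chr3:88384467-88384716, minus strand: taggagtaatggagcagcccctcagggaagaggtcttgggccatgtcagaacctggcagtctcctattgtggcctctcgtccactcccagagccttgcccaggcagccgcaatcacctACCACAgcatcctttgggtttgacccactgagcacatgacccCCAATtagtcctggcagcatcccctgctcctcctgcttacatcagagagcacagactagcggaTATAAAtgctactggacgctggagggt
Bglap3, chr3:88372742-88372991, minus strand: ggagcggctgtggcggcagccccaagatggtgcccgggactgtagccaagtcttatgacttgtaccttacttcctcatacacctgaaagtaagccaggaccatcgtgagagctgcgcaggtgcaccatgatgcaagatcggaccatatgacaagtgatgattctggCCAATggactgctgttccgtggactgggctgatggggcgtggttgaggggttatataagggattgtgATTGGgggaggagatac
Spp1, chr5:104434861-104435110, plus strand: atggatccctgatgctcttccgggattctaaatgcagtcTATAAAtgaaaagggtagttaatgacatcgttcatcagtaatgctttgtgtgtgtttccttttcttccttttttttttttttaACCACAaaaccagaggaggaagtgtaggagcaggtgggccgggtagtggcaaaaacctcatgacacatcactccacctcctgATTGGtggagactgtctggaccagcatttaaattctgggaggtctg
In the Bglap window the Runx core began 132 bases, CCAAT 90 bases and TATAAA 27 bases before the start. In the Spp1 window the letters TATAAA began 211 bases and the Runx core 128 bases before the start, with CCAAT on the other strand 46 bases before it. The Bglap3 window held CCAAT at 84 bases and, on the other strand, at 17 bases, but neither ACCACA nor TATAAA in those exact letters. Other forms of the TATA box were not searched. No window of these genes held overlapping matches. Of 32851 such windows, 14.0% held the Runx core, 12.4% TATAAA and 33.8% CCAAT. These are matches of letters, not measured sites.

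Levels are TPM, each transcript's share of a fixed total of 1000000 per library, which already accounts for gene length. Libraries had between 21551 and 24910 genes above 0. The deposited values do not keep read depth, so no counting interval is given and a 0 is written as listed at 0. A lower TPM in bulk RNA can come from fewer cells of a type or from less RNA per cell, and these cannot be told apart. Whether the libraries within a group came from separate animals is not stated, so p-values measure only the spread between libraries. Marker genes matched the labels only in part. Epcam, an epithelial gene, lay between 771 and 1062 TPM in all 12 intestinal libraries, sorted ones included, and between 0.09 and 0.72 TPM in the 9 marrow libraries. Ptprc, the general leukocyte gene Cd45, lay between 13.2 and 79.8 TPM in the 12 intestinal libraries and between 654 and 1165 TPM in the 18 splenic ones. In all intestinal cells it was 41.6, 64.7 and 60.1 TPM. It was 15.5, 26.7 and 32.5 TPM in the intestinal G sort and 13.2, 14.0 and 13.6 TPM in the combined sort, below every unsorted library. The intestinal M sort, at 47.5, 41.9 and 79.8 TPM, overlapped all intestinal cells. The 12 epithelial markers summed to 12068 ± 1575 TPM (SD, n = 3) in all intestinal cells, where the 20 fibroblast and matrix markers summed to 145 ± 90.3 TPM and the 12 myeloid markers to 427 ± 136 TPM. These libraries are therefore called all intestinal cells here and not stroma.

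The first question is how marrow and bone differ from intestine in these genes. Among all cells, type I collagen was the most abundant product of the set in marrow and a minor one in intestine. Col1a1 was 347, 268 and 394 TPM in the 3 marrow libraries and 1.49, 10.9 and 5.20 TPM in the 3 intestinal ones. Col1a2, the partner chain, was 260, 214 and 341 TPM in marrow and 1.60, 11.2 and 6.80 TPM in intestine. Every marrow library was above every intestinal one for both chains, and the log2 fold changes of TPM + 1 were 5.87 (SE 0.378, adjusted p = 1.77e-14) and 5.42 (SE 0.334, adjusted p = 6.09e-15) by limma. Col3a1 ran the other way, at 3.88, 4.96 and 6.63 TPM in marrow and 6.10, 35.3 and 15.6 TPM in intestine. The lowest intestinal library lay inside the marrow range, and the log2 fold change was -1.42 (SE 0.350, adjusted p = 0.000646). That call was lost without intestinal library 2, the highest, where the log2 fold change was -0.84 (adjusted p = 0.0193), and in a fit of the 2 groups alone (adjusted p = 0.0784). Dcn, at 7.50, 5.94 and 9.17 TPM in marrow and 4.65, 36.8 and 15.2 TPM in intestine, overlapped between the tissues. Its log2 fold change of -0.84 (SE 0.367, adjusted p = 0.0420) was below the size of 1 required of a call. Without intestinal library 1 it was -1.55 and was called.

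The 3 glycoproteins and proteins of bone matrix were all higher in marrow. Sparc, a collagen-binding glycoprotein, was 146, 119 and 194 TPM in marrow and 20.2, 52.6 and 47.0 TPM in intestine, so that the lowest marrow library was more than 2-fold above the highest intestinal one. Its log2 fold change was 1.99 (SE 0.301, adjusted p = 9.02e-07). Spp1, a mineral-binding protein that cells hold through Cd44 and integrins, was 58.5, 49.8 and 116 TPM in marrow and 4.93, 12.6 and 6.52 TPM in intestine, with a log2 fold change of 3.06 (SE 0.358, adjusted p = 8.47e-09). Bglap, made by mature osteoblasts, was 29.8, 39.9 and 40.0 TPM in marrow. In intestine it was 0.18 and 0.55 TPM in libraries 1 and 2 and listed at 0 in library 3. The log2 fold change was 4.93 (SE 0.267, adjusted p = 2.65e-16), and no marrow library of any of these genes overlapped an intestinal one.

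Bglap and its copies were not alike across the tissues. Bglap2 was 21.6, 16.1 and 17.5 TPM in all marrow cells, beside 0.14, 0 and 0.87 TPM in all intestinal cells (log2 fold change 3.90). Bglap3 was 0.14, 0.45 and 0.17 TPM in marrow and 9.85, 5.90 and 4.34 TPM in intestine (log2 fold change -2.56, also called). Reads of 75 bases cannot always be assigned among them: 50.0% of the 75-base windows of Bglap transcripts occur in another gene, 242 of 544 in Bglap2 and 41 in Bglap3, against 5.02% of the windows of Bglap3. The split between Bglap and Bglap2 is therefore uncertain. Spp1 shares 8.55% of its windows, with the overlapping gene Gm42793, Lepr 1.22% and Col3a1 0.672%, and the other 6 genes share none.

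Genes of the marrow niche were split. Igfbp5, which binds insulin-like growth factors, was 21.8, 13.4 and 35.5 TPM in marrow and 1.79, 6.04 and 4.60 TPM in intestine, with no overlap and a log2 fold change of 2.26 (SE 0.258, adjusted p = 5.38e-09). Lepr, the receptor that marks perivascular stroma in marrow, was low in both tissues, at 4.90, 1.63 and 6.36 TPM against 1.36, 3.78 and 2.65 TPM. These ranges overlapped, and the log2 fold change of 0.49 (SE 0.348, adjusted p = 0.214) did not pass. Kitl was 35.4, 36.7 and 43.1 TPM in all intestinal cells and 2.64, 1.18 and 5.62 TPM in all marrow cells. It was the only gene of the 10 whose intestinal libraries all lay above all marrow libraries, with a log2 fold change of -3.39 (SE 0.327, adjusted p = 1.68e-10). In sum 6 of the 10 genes were called higher in marrow and 2 lower, where a call needs an adjusted p under 0.05 over all 18466 genes and at least a 2-fold change on the scale of TPM + 1. Of all genes tested, 39.3% were called between these groups, 19.4% higher in marrow and 19.9% lower. The median log2 fold change was 2.12 over the 10 genes and 0.13 over all genes, which became -0.09 when libraries were rescaled to a common median ratio. Rescaling ended none of the calls on these 10 genes in any comparison. The groups differ in tissue and in the strain or genotype named by the labels, and the age and background strain of the APCmin/+ mice are not stated, so that these cannot be told apart.

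**Figure D1:**
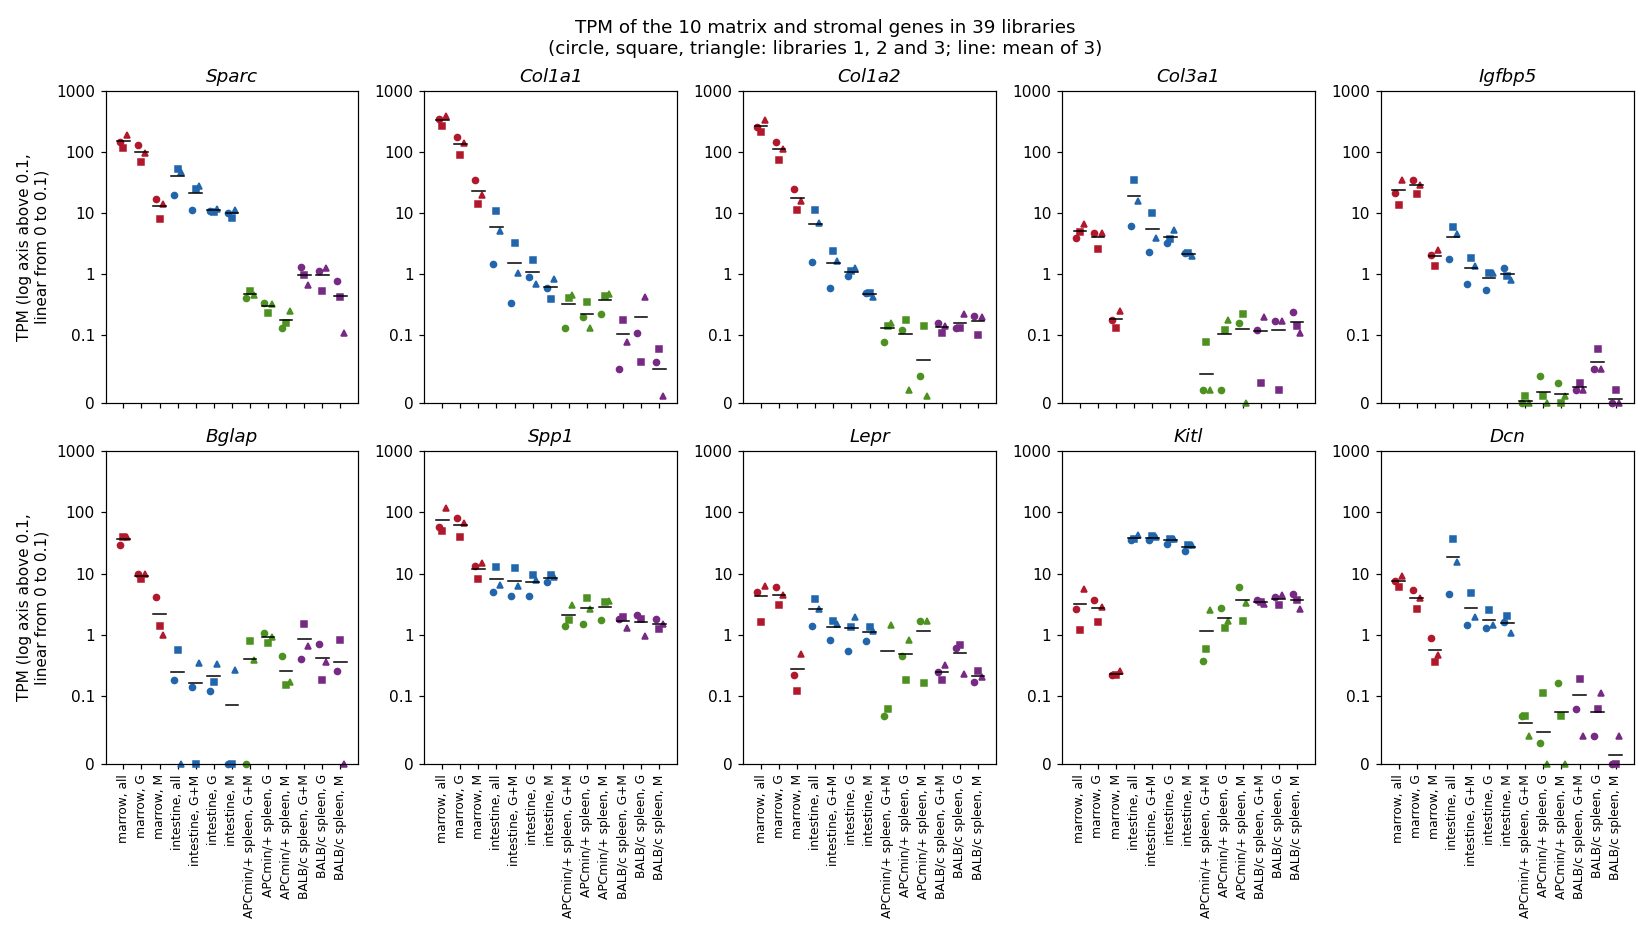
TPM (vertical axis, logarithmic above 0.1 and linear below) of each of the 10 genes in the 13 groups, with marrow in red, intestine in blue, APCmin/+ spleen in green and BALB/c spleen in purple. Circles, squares and triangles are libraries 1, 2 and 3, and lines are group means. Col1a1 falls from a mean of 336 TPM in all marrow cells to at most 0.48 TPM in a splenic library, whereas Kitl is highest in the intestinal groups.

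Ratios within a library do not depend on how libraries are scaled. Col3a1 over Col1a1 was 0.0155 ± 0.00385 (SD, n = 3) in all marrow cells and 3.44 ± 0.576 in all intestinal cells. Dcn over Col1a1 was 0.0224 ± 0.000869 in all marrow cells, against 3.14 ± 0.219 in all intestinal cells. For the marrow G sort it was 0.0295 ± 0.00108, and for the M sort 0.0241 ± 0.000515. Within marrow this ratio differed little between libraries, although Col1a1 itself ranged from 14.4 to 394 TPM. Col1a1 over Col1a2 was 1.25 ± 0.0915 in all marrow cells and 0.892 ± 0.113 in all intestinal cells. All marrow cells and all intestinal cells did not overlap in any of these 3 ratios. The exact two-sided permutation test gave p = 0.1 for each, the smallest that 3 against 3 libraries allow, and 0.133 after Benjamini-Hochberg adjustment over 8 ratios tested. In the marrow G sort the ratio of Igfbp5 to Col1a1 was 0.216 ± 0.0184 against 0.0677 ± 0.0205 in all marrow cells, again with no overlap (exact permutation p = 0.1, adjusted 0.133). In the M sort it was 0.0920 ± 0.0328 and overlapped all marrow cells (exact permutation p = 0.4, adjusted 0.4). Bglap over Col1a1 also overlapped, at 0.0721 ± 0.0174 in the G sort and 0.112 ± 0.0328 in all marrow cells (exact permutation p = 0.2, adjusted 0.229).

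**Figure D2:**
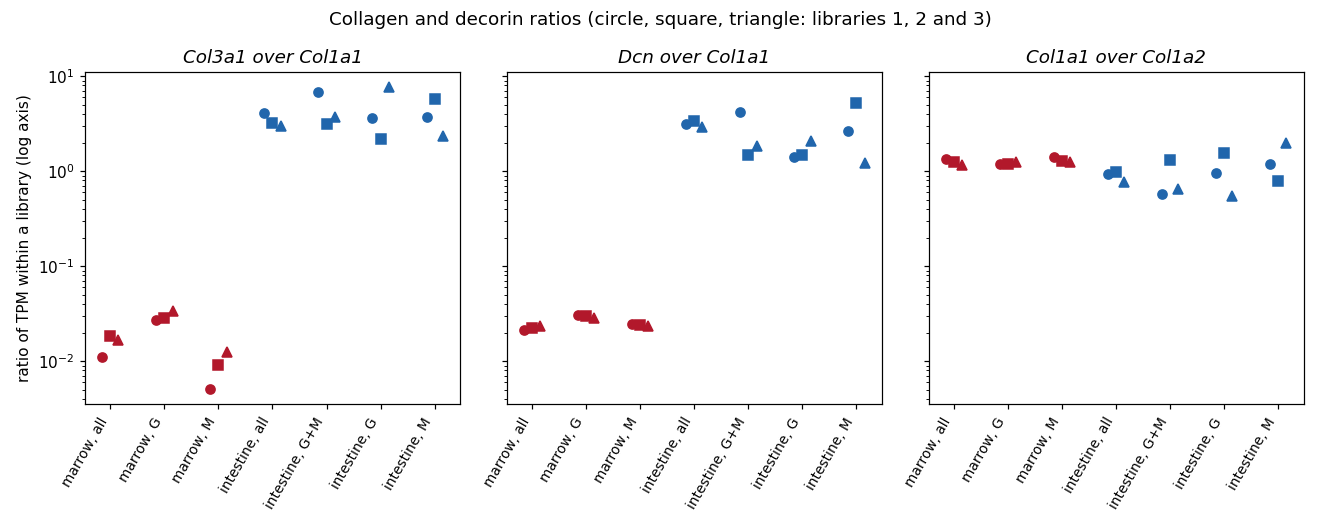
Ratios of TPM within a library (vertical logarithmic axis) in the marrow groups (red) and intestinal groups (blue), with circles, squares and triangles for libraries 1, 2 and 3. Col3a1 over Col1a1 is 0.0341 or less in the 9 marrow libraries and 2.19 or more in the 12 intestinal ones.

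The next question is whether the sorts of newborn marrow kept these transcripts. The M sort held far less of all 10 than unsorted marrow, while in the G sort 3 of them, the type I collagen chains and Bglap, were called lower. Col1a1 was 177, 88.7 and 139 TPM in the G sort and 35.5, 14.4 and 20.0 TPM in the M sort, beside 268 to 394 TPM in all cells. Col1a2 was 147, 73.8 and 111 TPM in the G sort and 25.3, 11.2 and 16.0 TPM in the M sort. Neither chain overlapped between the 3 groups. In the G sort Col1a1 changed by -1.35 (SE 0.378, adjusted p = 0.00341) and Col1a2 by -1.32 (SE 0.334, adjusted p = 0.00136) against all cells on the log2 scale. With a pseudocount of 0.1 the call on Col1a1 was lost (adjusted p = 0.0612). Bglap was 9.83, 8.01 and 9.79 TPM in the G sort and 4.10, 1.40 and 0.98 TPM in the M sort, and its change in the G sort was -1.87 (SE 0.267, adjusted p = 9.03e-07). These 3 of the 10 genes were called, all lower, where 19.1% of all genes were called and 9.49% were called lower.

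The other members were not called in the G sort, with means from 52.9% (Dcn) to 121% (Igfbp5) of those in all marrow cells. Sparc stood at 65.0%, Col3a1 at 78.0% and Kitl at 87.1%. Igfbp5 was 35.3, 20.9 and 29.4 TPM in the G sort, a range that overlapped all cells, and its mean was 121% of that in all cells. Spp1 was 80.1, 39.3 and 68.2 TPM, 83.5% of the mean in all cells, and Lepr was 6.10, 3.02 and 4.43 TPM, 105% of it. Sparc was 131, 68.4 and 98.1 TPM, and its log2 fold change of -0.64 (adjusted p = 0.0803) did not pass. Dcn, at 5.38, 2.64 and 3.93 TPM, lay below all 3 unsorted libraries, but its log2 fold change of -0.80 (adjusted p = 0.0720) did not pass either. An adjusted p above the threshold does not show that levels were equal.

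In the M sort all 10 genes were lower than in all marrow cells, with no overlap for any, where 19.1% of all genes were called and 11.2% were called lower. Log2 fold changes ran from -1.61 (Kitl, SE 0.327, adjusted p = 0.000141) to -3.93 (Col1a2, SE 0.334, adjusted p = 1.79e-10). Mean levels there were between 3.62% (Col3a1) and 16.0% (Spp1) of those in all marrow cells. Sparc was 17.3, 8.02 and 13.9 TPM and Spp1 was 13.1, 8.26 and 14.6 TPM, the highest of the set beside type I collagen. Kitl was 0.22, 0.22 and 0.25 TPM, and Col3a1 was 0.18, 0.13 and 0.25 TPM. All 10 calls held with each library left out in turn. The M sort was also lower in all 12 endothelial and 15 of 20 fibroblast and matrix markers, and higher in 10 of 12 myeloid markers. The part of these in the change of the 10 genes was not tested.

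Set directly against each other, the G sort was above the M sort in all 10 genes, with no overlap, where 10.2% of all genes were called and 6.89% were called higher in G. Igfbp5 differed by 3.31 (SE 0.258, adjusted p = 2.89e-11), Sparc by 2.84 (SE 0.301, adjusted p = 1.25e-08) and Kitl by 1.56 (SE 0.327, adjusted p = 0.000411), the largest and smallest sizes being those of Igfbp5 and Kitl. All 10 were called with each library left out, with another pseudocount and in a fit of these 2 groups alone. Among markers of other cells, the sum of the 12 endothelial markers was 199 ± 42.2 TPM in G libraries against 40.5 ± 2.48 TPM in M libraries, and 11 of the 12 were called. The 10 osteoclast markers summed to 328 ± 4.08 TPM and 87.8 ± 7.22 TPM, led in the G sort by Acp5 and Ctsk, enzymes of bone resorption. Acp5 was not particular to marrow, at 79.1 to 229 TPM in the 18 splenic and 95.6 to 172 TPM in the 12 intestinal libraries. Mean Ctsk was 1.05 TPM in the BALB/c and 1.07 TPM in the APCmin/+ splenic G sort. Of 8 osteoclast markers tested 5 were higher in the marrow G sort than in the M sort and 1, Tnfrsf11a, was lower. Of the 12 myeloid markers 2 were higher in G (Csf3r and Ly6g) and 4 were lower (Ccr2, Csf1r, Ly6c2 and Mpo). None of the 12 endothelial markers was listed at 0 in all 3 libraries of either sort, and 1 fibroblast and matrix marker was in the G sort. Whether cells of these kinds in the G sort carried the 10 transcripts was not tested.

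**Figure D3:**
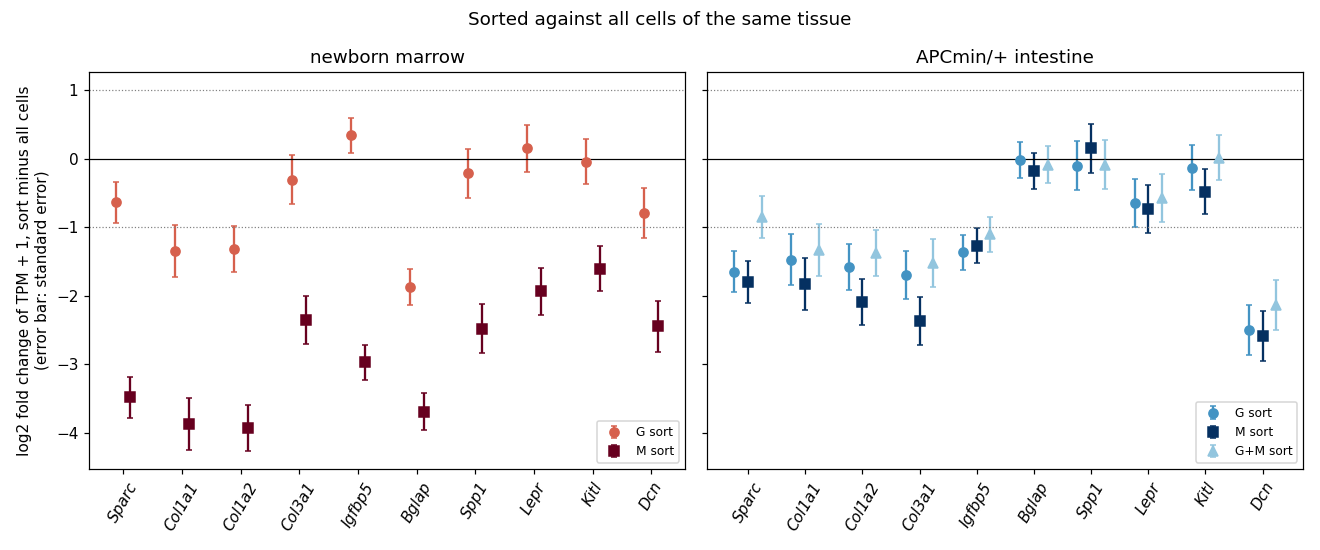
Log2 fold change of TPM + 1 (vertical axis, error bars are standard errors) of each sort against all cells of the same tissue, for marrow (left) and intestine (right). Dotted lines mark the size of 1 required of a call. The marrow M sort lies between -1.61 and -3.93 for all 10 genes, while the intestinal values of Bglap, Kitl, Lepr and Spp1 stay within 1 of 0.

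The same comparison was made in APCmin/+ intestine. The collagens, Dcn, Igfbp5 and Sparc were called lower in the G and M sorts than in all intestinal cells. Col1a1 in the G sort, at 0.90, 1.71 and 0.68 TPM, overlapped all cells, whose lowest library was 1.49 TPM. Bglap, Kitl, Lepr and Spp1 were not called, and Bglap was at most 0.55 TPM in all 12 intestinal libraries. Dcn was 1.26, 2.55 and 1.42 TPM in the G sort, 1.58, 2.03 and 1.05 TPM in the M sort and 4.65 to 36.8 TPM in all cells. Its log2 fold changes were -2.49 (SE 0.367, adjusted p = 1.21e-05) and -2.59 (SE 0.367, adjusted p = 5.05e-06). Both sorts were thus below every library of all cells. Col3a1 was 3.26, 3.74 and 5.24 TPM in the G sort (log2 fold change -1.70) and 2.23, 2.25 and 1.99 TPM in the M sort (-2.36). Sparc was 11.0, 10.6 and 11.7 TPM in the G sort (-1.65) and 9.97, 8.49 and 11.4 TPM in the M sort (-1.80), below all 3 unsorted libraries. Kitl was 30.1, 37.3 and 37.2 TPM in the G sort and 23.2, 29.2 and 29.3 TPM in the M sort, 90.9% and 70.9% of the mean in all intestinal cells. The 3 M libraries lay below those of all cells (log2 fold change -0.48, adjusted p = 0.264). Spp1, at 4.37 to 9.31 TPM in the G sort and 7.21 to 9.36 TPM in the M sort, overlapped all cells. Lepr was 0.53, 1.35 and 1.96 TPM in the G sort and 0.79, 1.34 and 1.15 TPM in the M sort. Its means were 49.3% and 42.1% of that in all intestinal cells. In each sort 6 genes were called lower (Sparc, Col1a1, Col1a2, Col3a1, Igfbp5 and Dcn) and none higher, where 5.38% (G) and 4.42% (M) of all genes were called and 5.23% and 3.68% were called lower.

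These intestinal calls rest on the spread pooled over all 13 groups. In fits of only the 2 groups compared, none of the 10 genes was called by limma in either sort, although 5 (G) and 8 (M) had an unadjusted p under 0.05 and 198 and 365 of all genes were called. In all intestinal cells library 1 held the lowest value for 9 of the 10 genes, Col1a1 being 1.49 TPM there and 10.9 TPM in library 2. The endothelial markers moved with this, summing to 69.6, 258 and 237 TPM in libraries 1, 2 and 3, as did the fibroblast and matrix markers, with 62.2, 241 and 132 TPM. The part of these in the spread was not tested. Without library 2 of all intestinal cells the calls on Col1a1 in the G sort (log2 fold change -0.94, adjusted p = 0.125) and Igfbp5 in the M sort (-0.99) were lost, and without library 1 Lepr was called in the M sort (-1.01).

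The combined sort stood nearer to all intestinal cells. Sparc was 11.5, 24.6 and 28.1 TPM there, which overlapped all cells (log2 fold change -0.85, adjusted p = 0.118). Col1a1, Col1a2, Col3a1, Igfbp5 and Dcn were called lower, with log2 fold changes from -1.10 (Igfbp5) to -2.13 (Dcn), although libraries of all 5 overlapped between the groups, and 3.24% of all genes were called, 3.23% lower. Kitl was 34.9, 41.0 and 40.0 TPM, 101% of the mean in all cells. Equally numbered libraries of these groups deviated together, and with the replicate number as a block none of the 10 genes was called, nor was any other gene (7 of the 10 had an unadjusted p under 0.05). In a fit of these 2 groups without the block the count was also 0, with 2 of the 10 at an unadjusted p under 0.05. Leaving out library 2 or 3 of all intestinal cells or library 1 of the combined sort left 1, 2 and 1 calls, and without library 3 of the combined sort Col1a1 was not called (-1.26). Without library 1 of all intestinal cells Sparc was called as well (-1.27).

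Within intestine none of the 10 genes was called by limma between the G and M sorts. None had an unadjusted p under 0.05, and 2.83% of all genes were called. Every G library lay above every M library for Col3a1 (log2 fold change 0.67, adjusted p = 0.252), for Col1a2 (0.51, adjusted p = 0.362) and for Kitl. With the replicate number as a block, which pairs these libraries in the data, the count stayed at 0, with 4 of the 10 at an unadjusted p under 0.05.

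Whether the sorts differed between the tissues was tested directly. The G against M difference was larger in marrow than in intestine for 9 of the 10 genes, where 12.3% of all genes were called and 8.24% in that direction. The excess was 3.40 for Igfbp5 (SE 0.365, adjusted p = 4.79e-08), 2.69 for Sparc (SE 0.426, adjusted p = 2.31e-05) and 2.52 for Spp1 (SE 0.507, adjusted p = 0.000435) on the log2 scale. Col3a1 and Dcn passed narrowly (adjusted p = 0.0398 and 0.0264). Without the filter on low genes they did not pass (adjusted p = 0.0751 and 0.0513), and single libraries mattered. Col3a1 was called without library 2 of the marrow G sort, or library 3 of the intestinal G or M sort, and lost its call without any one of the other 9 libraries (1.26 to 1.42). Dcn lost its call without library 1 of the marrow G sort, library 2 or 3 of the marrow M sort, library 1 or 3 of the intestinal G sort or library 2 of the intestinal M sort (1.36 to 1.52). Kitl did not pass (1.21, adjusted p = 0.0529). It was called without library 2 of the marrow G sort (1.45), with a pseudocount of 0.1 (adjusted p = 0.00350), on rescaling (0.0197) and in a fit of these 4 groups alone, without and with the replicate block (0.00860 and 0.0142), and both fits called all 10 genes. With a pseudocount of 0.1 Col1a1, Col1a2 and Bglap, which were near 1 TPM or lower in the intestinal sorts, lost their calls. Bglap was at most 0.33 TPM in the intestinal G and M sorts and was tested only because of its level in marrow, so its difference between tissues (1.66) mostly repeats the one within marrow (1.81) and is given as a value only. The values of both sides are those given above: for Igfbp5, 20.9 to 35.3 TPM (G) and 1.37 to 2.46 TPM (M) in marrow, and 0.55 to 1.04 TPM (G) and 0.81 to 1.27 TPM (M) in intestine.

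The change from all cells to the G sort differed between the tissues for 4 genes, where 24.3% of all genes were called, 16% with a positive difference and 8.26% with a negative one. The difference, marrow minus intestine, was positive for Igfbp5 (1.70, adjusted p = 0.000332), Dcn (1.70, adjusted p = 0.00813) and Col3a1 (1.39, adjusted p = 0.0221), which were lower in the intestinal G sort than in all cells and not called in the marrow one. For Bglap it was -1.85 (adjusted p = 0.000197), but intestinal Bglap was at most 0.55 TPM in all 12 libraries and had almost no room to fall, so this value mostly repeats the change in marrow (-1.87). With a pseudocount of 0.1 it was not called (adjusted p = 0.115). A fit of these 4 groups alone called 2 of the genes, as Col3a1 and Dcn lost their calls (adjusted p = 0.120 and 0.0977). With Bglap, Bglap2 and Bglap3 summed, the Bglap difference was -1.04 (adjusted p = 0.0503). Col3a1 was not called without library 2 of all intestinal cells (0.81), library 1 of all marrow cells (1.23), library 1 (1.27) or 3 (1.28) of the marrow G sort or library 1 of the intestinal G sort (1.27). Sparc was called without library 1 of all intestinal cells (1.43), library 2 of the marrow G sort (1.25) or library 3 of all marrow cells (1.20). The change from all cells to the M sort was more negative in marrow for 6 genes, where 19.5% of all genes were called and 6.75% in that direction. The difference of Bglap, -3.51, again mostly repeats its change in marrow (-3.69). The difference was -2.63 for Spp1, -2.04 for Col1a1, -1.84 for Col1a2, -1.70 for Igfbp5 and -1.68 for Sparc. With a pseudocount of 0.1 the differences of Col1a1 and Col1a2 were -1.21 and -0.85 and were not called. In a fit of these 4 groups alone Col1a2 was not called (adjusted p = 0.0519), and with the replicate block neither was (0.0617 and 0.0772). On rescaling Lepr (-1.25) and Kitl (-1.34) were called. Lepr was also called without library 2 of all marrow cells (-1.65) or of all intestinal cells (-1.44), and Kitl without library 2 of all marrow cells (-1.51). These 3 contrasts share libraries with each other and with the comparisons above.

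In spleen none of the 10 transcripts exceeded 6.05 TPM, though Kitl, Bglap and Lepr were not lowest there. Over its 18 libraries the lowest, median and highest TPM of Col1a1 were 0.01, 0.155 and 0.48, those of Sparc 0.11, 0.44 and 1.31, and those of Spp1 0.95, 1.81 and 3.95. Igfbp5 reached at most 0.08 TPM and was listed at 0 in 6 libraries, and Dcn reached at most 0.19 TPM and was listed at 0 in 4. Kitl was the highest of the set there, with a median of 3.08 TPM between 0.37 and 6.05 TPM. Mean Kitl was 3.83 (G), 3.66 (M) and 3.40 TPM (combined) in BALB/c spleen and 3.68 TPM in the APCmin/+ M sort. These means lay above the 3.15 TPM of all marrow cells, with overlapping libraries. The APCmin/+ G (1.89 TPM) and combined (1.16 TPM) sorts lay below it. Bglap ranged from 0 to 1.50 TPM, Lepr from 0.07 to 1.68 TPM, Col3a1 from 0 to 0.24 TPM and Col1a2 from 0.01 to 0.22 TPM. Splenic group means of Bglap, 0.257 to 0.900 TPM, lay above the intestinal ones of 0.0867 to 0.243 TPM, with overlapping libraries. Mean Lepr was 1.16 TPM in the APCmin/+ splenic M sort and 0.277 TPM in the marrow M sort, also with overlapping libraries.

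Sorts of the same name were compared between intestine and spleen of APCmin/+ mice. In the G and M sorts 5 genes were called, all higher in intestine (Sparc, Col3a1, Spp1, Kitl and Dcn), and 7 in the combined sort, with Col1a2 and Igfbp5 in addition. Of all genes 40.8%, 39.9% and 39.3% were called, and 18.7%, 14.2% and 19.5% were called higher in intestine. Kitl differed by 3.66 (SE 0.327), 2.69 (SE 0.327) and 4.33 (SE 0.327) in the G, M and combined sorts, with adjusted p of 2.71e-11, 1.78e-08 and 6.12e-13 by limma. Sparc differed by 3.22, 3.21 and 3.84, and neither gene overlapped between the tissues in any sort. Spp1 differed by 1.15, 1.32 and 1.42. Its call in the G sort was lost without library 1 of the splenic sort (0.90) or library 2 of the intestinal sort (0.96). Igfbp5 was called in the G sort without library 1 of the intestinal sort, and in the M sort without library 2 or library 3 (1.04) of it. In the combined sort Col1a2 (0.86) and Igfbp5 (0.99) lost their calls without library 2 of the intestinal sort, and Lepr gained one (1.11) without library 3 of the splenic sort. All 12 epithelial markers were higher in the intestinal sorts, and 12, 10 and 12 of the 12 myeloid markers were lower. Their part in these differences was not tested. With a pseudocount of 0.1, under which low levels count for more, 9 of the 10 genes were called in the G sorts.

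Between G and M sorts of spleen none of the 10 genes was called by limma in either kind of mouse, where 4.94% (BALB/c) and 3.22% (APCmin/+) of all genes were. At an unadjusted p under 0.05 there were 0 and 1 (Bglap, higher in G by 0.60, adjusted p = 0.111). With the replicate number as a block, which pairs the APCmin/+ libraries in the data, the APCmin/+ count stayed at 0, with 2 at an unadjusted p under 0.05. Between the spleens of the 2 kinds of mice none was called in the G sorts (8.87% of all genes) or the M sorts (11.5%), with 1 of the 10 at an unadjusted p under 0.05 in each. In the combined sorts Kitl was called lower in APCmin/+ (9% of all genes called, 5.39% lower): it was 0.37, 0.59 and 2.53 TPM in APCmin/+ and 3.63, 3.40 and 3.17 TPM in BALB/c spleen, without overlap (log2 fold change -1.16, SE 0.327, adjusted p = 0.00868). That call was lost without APCmin/+ library 1 (-0.89, adjusted p = 0.0772) or 2 (adjusted p = 0.0580), and in a fit of these 2 groups alone (adjusted p = 0.106). Lepr in the M sorts, 1.68, 0.16 and 1.65 TPM against 0.17, 0.25 and 0.20 TPM, was called only without APCmin/+ library 2 (1.14).

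Correlations of log2(TPM + 1) across the 39 libraries describe how the genes vary together. The libraries share tissues, groups and a fixed total, so that no test is attached to them. Col1a1 and Col1a2 had a Pearson r of 0.996, Col3a1 and Dcn 0.954, and Igfbp5 and Spp1 0.955, whereas Kitl and Bglap had -0.364 and Kitl and Col1a1 -0.206. Among other genes, those most like Igfbp5 were Cxcl12 (r = 0.995), the niche chemokine, Fkbp10 (0.982), a helper of collagen folding, and Tnc (0.982), a matrix glycoprotein. Cxcl12 was also nearest to Spp1 (0.955). Sparc was nearest to Tpm2 (0.975), Bgn (0.969) and Cald1 (0.969), and Col1a1 and Col1a2 to Serpinf1 (0.972 and 0.967) and Mpig6b (0.970 and 0.965), a platelet lineage receptor. Col3a1 was nearest to Fbln5 (0.970), Col6a2 (0.969) and Cavin3 (0.967), and Dcn to Col6a1 (0.967), Col6a2 (0.965) and Col13a1 (0.958). Bglap was nearest to Serpina3b (0.959), Lin28b (0.958) and Hesx1 (0.958). Kitl stood with Sh3bgrl2 (0.980), Efnb1 (0.979) and Clstn1 (0.976), at 53.0, 47.4 and 56.7 TPM in all intestinal cells and 2.11, 2.40 and 7.20 TPM in all marrow cells. Lepr had the weakest nearest gene, Kirrel (0.896).

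Cxcl12 tracked Igfbp5 in single libraries too. It was 92.8, 33.6 and 145 TPM in all marrow cells, where Igfbp5 was 21.8, 13.4 and 35.5 TPM. The ratio of Cxcl12 to Igfbp5 was 3.62 ± 0.964 (SD, n = 3) there and 2.22 ± 0.453 in all intestinal cells. For the marrow G sort it was 3.23 ± 0.295, and for the M sort 2.89 ± 0.339. Within a marrow group the same library was often the lowest: library 2 was the lowest for 10 of the 10 genes in the G sort, for 8 in the M sort and for 8 in all cells.

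Partners of these genes were read from lists of receptors, processing enzymes and family members. Kit, the receptor of Kitl, was 35.3 ± 4.25 TPM in all marrow cells and 17.2 ± 1.70 TPM in all intestinal cells, and its log2 fold change of 0.99 was not called, while its ligand differed in the opposite direction. Among receptors of matrix, Ddr1, a collagen receptor of epithelia, was 1.12 ± 0.561 TPM in marrow and 55.0 ± 2.49 TPM in intestine (log2 fold change -4.76). The collagen-binding integrin chain Itga2 was also lower in marrow (-2.38), whereas Cd44 (1.30) and Itgb3 (3.45), which bind Spp1, were higher. In all, 5 of 12 tested ligands and receptors were called higher in marrow and 3 lower, with a median log2 fold change of 0.64. Of the 6 other Igfbp genes 3 were lower in marrow and none higher, the opposite of Igfbp5: Igfbp7 was 3.82 ± 1.79 TPM in marrow and 40.8 ± 24.5 TPM in intestine, Igfbp3 was 1.57 ± 0.957 TPM and 16.5 ± 10.6 TPM, and Igfbp1 was listed at 0 in all 3 marrow libraries. Igfbp4, the most abundant of them, was 102 ± 1.46 TPM and 66.0 ± 24.7 TPM and was not called.

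The counts of each list in this comparison stand beside 19.4% of all genes called higher in marrow and 19.9% called lower. Of 14 collagen processing enzymes tested, 2 were higher in marrow (Lox, which cross-links collagen, 2.50, and Pcolce, 1.42) and 1 was lower (P4ha2, -1.45). Of 11 osteoblast and bone genes tested 8 were higher in marrow, among them Ibsp, a sialoprotein of bone, at 18.9 ± 7.67 TPM against 0.0333 ± 0.0351 TPM, and Sp7, an osteoblast transcription factor (log2 fold change 1.70). Bglap3 was lower, as given above. Fibroblast and matrix genes were divided: Col5a1 (2.62) and Col5a2 (1.68), chains of a collagen that joins type I fibrils, were higher in marrow, and Col14a1, Dpt, Fbln1 and Postn were lower, out of 20 tested with a median of 0.03. Smooth muscle genes were lower in marrow for 5 of 7 tested, such as Acta2 (-1.92) and Tagln (-2.14).

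**Figure D4:**
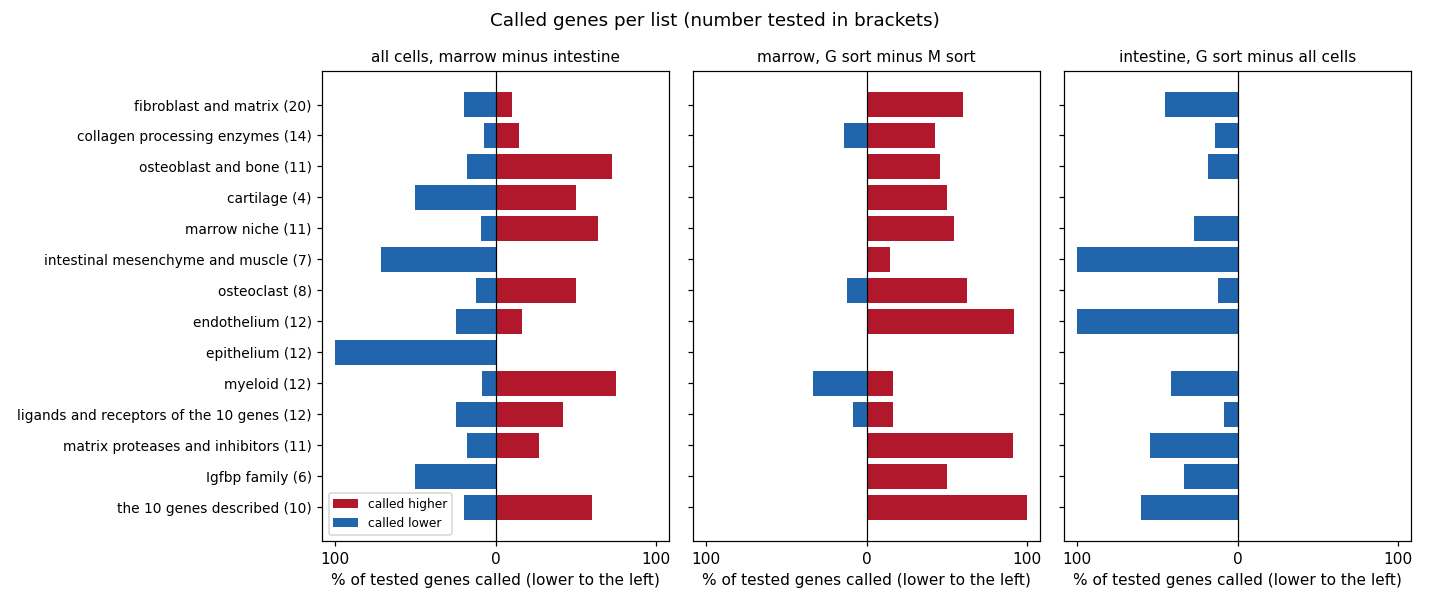
Share of the tested genes of each list (horizontal axis, in percent) that was called higher (red, to the right) or lower (blue, to the left) in 3 comparisons, with the number tested in brackets. All 12 epithelial genes are lower in marrow, 11 of 12 endothelial genes are higher in the marrow G sort than in the M sort, and all 12 are lower in the intestinal G sort than in all intestinal cells.

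Between the marrow G and M sorts, where 6.89% of all genes were called higher in G, 12 of 20 fibroblast and matrix genes, 10 of 11 matrix proteases and inhibitors and 5 of 11 osteoblast and bone genes were higher in G and none lower. No epithelial gene was called, and 1 of 7 smooth muscle and mesenchyme genes was higher. Of the proteases, Mmp8 and Mmp9 were also called higher in G than in M in BALB/c spleen (log2 fold changes 1.86 and 4.11). The other tested genes of that list were not called there. In marrow Mmp13, a collagenase, was 19.7 TPM in the G sort on average and 1.38 TPM in the M sort (log2 fold change 3.14). Serpinh1, the collagen chaperone, was 19.8 TPM and 2.20 TPM (2.66), while P4hb (-1.16) and Plod3 (-1.06), enzymes that act on collagen and on other proteins, were lower in G. Cxcl12 was 93.5 ± 31.5 TPM in the G sort and 5.78 ± 2.15 TPM in the M sort (3.80). In the intestinal G sort 12 of 12 endothelial, 7 of 7 smooth muscle and mesenchyme and 9 of 20 fibroblast and matrix genes were lower than in all intestinal cells, where 5.23% of all genes were, and no epithelial gene was called. A fit of these 2 groups alone called 198 genes in place of 994, and 6 with the replicate block.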

How the data were processed

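Polyadenylated RNA of 39 samples was grouped by label into 13 groups of 3. Stranded libraries were read as single reads of 75 bases, per the labels' protocols. Per the submitters' processing notes, bcl2fastq 2.18 (2.20 in the extract protocol), STAR 2.6.1c, RSEM and the mm10 build were used. Neither RSEM's version nor its annotation is given in the sources used here. The authors deposited TPM from RSEM, in which depth per sample is unknown.

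Genes that reached 1 TPM in 3 or more libraries (18466 of 53465) were analysed as log2(TPM + 1), a scale that understates changes of low genes. A linear model of group means over all 39 libraries was fitted with limma 3.58.1 (R 4.3.3), using a variance trend, two-sided moderated tests and Benjamini-Hochberg adjustment over every gene tested. Calls required an adjusted p under 0.05 and a change of 1 or more on the log2 scale. The fit was tested on simulated data. Ratios were compared with exact permutation tests, and other values were computed in Python 3.11.15.

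The 10 genes and the 13 gene lists (163 of 164 genes found) were chosen with earlier results of these data known. 1 gene of these lists is not reported here. Genes set out to be named were the 10 genes, the ligands, receptors and Igfbp genes, and the Bglap copies. To these came up to 4 abundant genes of each list, the 3 genes nearest in correlation, and Ptprc, Epcam and Pecam1. Not all of them are given, and several ligands, receptors, Igfbp genes and nearest genes were left out. Lox, Pcolce, P4ha2, Ibsp, Sp7, the genes named of the fibroblast and muscle lists, Mmp13, Serpinh1 and Ctsk were named after their values were seen.

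Replicate numbers, whose meaning the labels do not give, were checked by correlating how libraries of the same number deviated from the means of their groups. All 3 exceeded 0.1 for combined against all intestinal cells (0.643, 0.590 and 0.628), G against M sorts of intestine (0.599, 0.432 and 0.562) and of APCmin/+ spleen (0.555, 0.375 and 0.404). Alternatives were a pseudocount of 0.1, no filter, rescaling by median ratio over 6908 genes, fits of only the groups in a comparison without and with a block on replicate number, omission of each library, and the sum of the 3 Bglap copies. Leaving out library 1 of every intestinal or library 2 of every marrow group was added after seeing the data.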

Additional observations from a re-analysis of the deposited data

Results flagged for a closer look

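The difference between the G and M sorts was itself different in marrow and intestine for 9 of the 10 genes, by limma with adjusted p under 0.05. Of all genes 12.3% were called, 8.24% with a positive difference. The log2 difference in marrow minus that in intestine was 2.69 for Sparc, 2.16 for Col1a1, 2.10 for Col1a2, 1.38 for Col3a1, 3.40 for Igfbp5, 1.66 for Bglap, 2.52 for Spp1, 2.00 for Lepr and 1.56 for Dcn. Bglap was at most 0.33 TPM in the intestinal G and M sorts, so its value mostly repeats the difference within marrow. With a pseudocount of 0.1 Col1a1, Col1a2 and Bglap (limma, adjusted p = 0.398) were not called. Col3a1 and Dcn lost their calls without the filter and without several single libraries.

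The change from all cells to the G sort differed between the tissues by 1.39 for Col3a1, 1.70 for Igfbp5, -1.85 for Bglap and 1.70 for Dcn. There 24.3% of all genes were called, 16% with a positive difference and 8.26% with a negative one. The change from all cells to the M sort differed by -1.68 for Sparc, -2.04 for Col1a1, -1.84 for Col1a2, -1.70 for Igfbp5, -3.51 for Bglap and -2.63 for Spp1. For this contrast 19.5% of all genes were called, 6.75% with a negative difference. As given above, several of these calls were lost under other settings or without single libraries. A negative value means that the change was more negative in marrow. Bglap was at most 0.55 TPM in all 12 intestinal libraries, so its 3 values mostly repeat its changes in marrow. No explanation of these differences was tested, and tissue and the strain or genotype of the mice cannot be told apart.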

How the results depend on the processing

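In fits of only the groups compared, and again with the replicate block, 0 of the 10 genes were called for each of the G, M and combined intestinal sorts against all intestinal cells, against 6, 6 and 5 in the fit of all groups. Both fits called 0 genes between the combined splenic sorts and 2 for the difference of the G sort against all cells contrast, which also had 2 with a pseudocount of 0.1. That pseudocount called 9 genes between intestinal and splenic G sorts and 1 each between the splenic G and M sorts of the 2 kinds of mice. Other counts with the block stayed within 1.5 times, and for groups not paired in the data the numbers are only names.

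Leaving out single libraries gave 7 to 9 genes called between all marrow and all intestinal cells, 3 for the marrow G sort and 10 for its M sort against all cells, and 10 for one sort against the other. In intestine it gave 5 to 6 (G), 5 to 7 (M) and 1 to 6 (combined) against all cells. Between intestine and spleen it gave 4 to 6, 5 to 6 and 5 to 8, and between the kinds of spleen 0, 0 to 1 and 0 to 1. It gave 0 between G and M sorts of intestine and of both spleens. The contrasts between tissues gave 7 to 10 (G against M), 3 to 5 (G) and 6 to 8 (M). Of 107 single results, 100 kept their side of the threshold on rescaling, 105 without the filter, 93 with the other pseudocount and 84 in fits of only the groups compared, and none changed sign while called. Without library 1 of every intestinal group 74 of 77 kept it, and without library 2 of every marrow group 54 of 59. Depth is unknown, so values near 0 carry no detection limit.

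Over all genes, fits of only the groups compared, without and with the block, called 198 and 6 genes for the intestinal G sort against all cells (994 in the fit of all groups), 365 and 5 for M (816), 5 and 0 for the combined sort (599) and 66 and 261 for G against M (523). For G against M in APCmin/+ spleen they called 0 and 0 (594). Between the kinds of spleen they called 1298 and 548 (G, 1638), 1047 and 297 (M, 2120) and 994 and 393 (combined, 1662). With the pseudocount of 0.1 the counts were 1703 (G), 1444 (M) and 974 (combined) for the intestinal sorts against all cells, 967 when splenic APCmin/+ sorts were compared, 2559, 3292 and 2697 between the kinds of spleen, and 3134 (1886 with a pseudocount of 1) for G against M in marrow.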

Other observations

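Beside the bone matrix genes, transcripts of cartilage, bone resorption and the marrow niche were present in newborn marrow. Col10a1, the collagen of growth plate cartilage that is about to turn to bone, was 9.25, 9.99 and 18.4 TPM in all marrow cells and at most 0.11 TPM in all intestinal cells (log2 fold change 3.63). It was 12.9 ± 3.50 TPM (SD, n = 3) in the marrow G sort and 1.63 ± 1.09 TPM in the marrow M sort. Sox9, a factor of early cartilage that intestinal crypts also express, ran the other way, at 0.0900 ± 0.0600 TPM in all marrow cells and 17.0 ± 1.87 TPM in all intestinal cells (-4.05). Ctsk, the main collagen-degrading protease of osteoclasts, was 84.0 ± 22.0 TPM in all marrow cells, between 95.4 and 104 TPM in G libraries and 2.97 ± 1.34 TPM in M libraries. Of the niche genes Vcam1, an adhesion molecule, was 55.4 ± 4.69 TPM in all marrow cells and 2.80 ± 1.18 TPM in all intestinal cells (3.94). Vcam1 was not particular to marrow, with means of 715 TPM in the BALB/c and 252 TPM in the APCmin/+ splenic G sort. Its log2 difference between the marrow sorts, 0.92, was not called (limma, adjusted p = 0.239), whereas that of Angpt1, a vessel growth factor, was (1.12, adjusted p = 7.52e-06). These genes were chosen after their values were seen.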
